A study of Caenorhabditis elegans with 2 samples.

Results

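The genes described here were the nuclear hormone receptor genes of Caenorhabditis elegans, read in a map of where an eGFP-tagged copy of 1 receptor, NHR-21, was bound in larvae. They were chosen by name: protein-coding genes with a symbol of the form nhr plus a number, without nhr-10, nhr-13, nhr-23, nhr-25, nhr-49, nhr-66, nhr-68 and nhr-80, together with unc-55, fax-1, sex-1 and odr-7. This gave 265 of the 19973 annotated protein-coding genes, of which 261 carried an nhr name and 4 did not. Membership rests on the gene name, and no protein sequence was read to check it. Chromosome V carried 165 of the genes, IV 32, X 25, I 22, II 15 and III 6.

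The animals were whole L2 larvae of mixed sex from strain OP361, genotype unc-119(tm4063) III; wgIs361, in which the tagged receptor is an integrated transgene and for which no mutation of the worm's own nhr-21 gene is listed. The antibody is labelled nhr-21, while the sample description names the eGFP fusion. The design held 1 group of 2 biological replicates, and no control sample was analysed here, so no comparison between conditions was made and no test was run. All shares below describe 1 set of peak lists, and those of the receptor genes stand beside the same share over all protein-coding genes.

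Nuclear receptors are transcription factors that bind DNA through a pair of zinc fingers and, in many members, change activity when a small lipophilic molecule occupies their ligand-binding domain. Worms have far more of these genes than flies or mammals, mostly from the expansion of an ancestor related to vertebrate HNF4, and many of the expanded genes lie close together on chromosome V. Members with known roles act in fat metabolism, detoxification, molting, developmental timing and the identity of single neurons.

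Binding was read from intervals that the authors called on ChIP-seq reads. The pooled list held 30000 candidate intervals, deposited as peaks together with background, so a weak candidate is not by itself shown to be bound. The optimal peaks were the 3647 of them with the highest signal, which is the authors' peak-caller value and ranks intervals within a list only. Sequencing depth is unknown, because the lists give no read totals. A gene was counted when the summit of an interval, its highest point, lay between 1000 bp upstream and 250 bp downstream of one of its annotated 5′ ends. Positions are given in ce11 (WBcel235).

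The tagged receptor had an optimal peak in the promoter window of 28 of the 265 receptor genes (10.6%), against 11.6% of all protein-coding genes. A pooled candidate of any strength, background included, lay in the window of 143 receptor genes (54%), against 41.2% of all genes. The receptor genes thus stood at the background for optimal peaks and above it for candidates. Among the 143, optimal peaks were at 19.6%, against 28.1% of all genes with a candidate. The other 122 receptor genes had no pooled candidate, and 85 genes had none in the pooled list or in either replicate.

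The sequences at 7 of the strongest or most unlike summits are shown first, since they show what DNA lay under the highest points of binding at these genes. Each runs from 50 bp before to 50 bp after a summit in the RefSeq WBcel235 genome and is written 5′ to 3′ on the strand of the receptor gene. Capitals mark matches to any of 5 words on either strand. The first is GAGAGA, whose reverse complement reads TCTCTC, the second TGATAA, which reads the other way as TTATCA, and the third the palindrome CACGTG, the E-box of basic helix-loop-helix proteins. The remaining words were AGGTCA, a hexamer of the kind bound by many nuclear receptors, and a close variant of it, AAGTCA.

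The first 4 lie upstream of their genes, at nhr-119 (chrII:2800975-2801075, minus strand), nhr-158 (chrV:3874498-3874598, minus), nhr-57 (chrV:4131667-4131767, plus) and nhr-32 (chrX:13251568-13251668, plus).
nhr-119: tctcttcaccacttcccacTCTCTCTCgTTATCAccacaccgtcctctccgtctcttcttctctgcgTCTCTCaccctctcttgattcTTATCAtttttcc
nhr-158: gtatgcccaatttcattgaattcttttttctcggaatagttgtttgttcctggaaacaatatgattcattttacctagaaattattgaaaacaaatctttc
nhr-57: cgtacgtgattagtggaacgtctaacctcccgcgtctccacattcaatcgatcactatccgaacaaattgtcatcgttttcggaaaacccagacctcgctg
nhr-32: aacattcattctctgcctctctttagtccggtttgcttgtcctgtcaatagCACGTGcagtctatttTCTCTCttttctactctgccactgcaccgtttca

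The next 3 lie in introns, at nhr-41 (chrIV:1388217-1388317, plus), where the summit falls inside a tRNA gene, and at nhr-14 (chrX:8475273-8475373, minus) and nhr-3 (chrX:14560400-14560500, plus), the strongest intronic peaks of any receptor gene here.
nhr-41: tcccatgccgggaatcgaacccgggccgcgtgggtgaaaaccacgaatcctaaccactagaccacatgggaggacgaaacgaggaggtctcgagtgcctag
nhr-14: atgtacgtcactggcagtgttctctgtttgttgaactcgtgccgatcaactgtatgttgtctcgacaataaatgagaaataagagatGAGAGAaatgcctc
nhr-3: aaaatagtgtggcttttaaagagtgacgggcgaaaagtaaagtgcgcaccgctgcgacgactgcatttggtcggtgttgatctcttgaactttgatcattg

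Of these 7 sequences, those of nhr-158, nhr-57, nhr-41 and nhr-3 held none of the 5 words. Over all 30 optimal summits in the promoter windows of receptor genes, AGGTCA was in 0, against 3.79% of the 1951 optimal summits in promoter windows of all genes. The variant AAGTCA was also in 0, against 3.49%. A count of 0 in 30 allows a share of up to 10% for either word, counting error only. GAGAGA was in 10 of the 30 (33.3%), against 22.6% of all. TGATAA was in 4 (13.3%), against 9.58%, and CACGTG in 2 (6.67%), against 6.71%. AGGTCA and AAGTCA did occur at other summits of receptor genes. Among the 189 weaker candidate summits in their promoter windows, AAGTCA was in 12 (6.35%), against 4.52% of such summits over all genes. AGGTCA was in 2 of the 189 (1.06%), against 3.25%. It was also in the sequence of the weaker intronic optimal summit of nhr-31. A match is a run of letters and not a shown binding site, and the absence of a word says only that these letters were not in the searched stretch. Neighbouring GAGAGA matches overlap where the repeat runs on, as in the sequence of nhr-119.

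GC content of the 30 summit sequences averaged 44.1% ± 6.38 (SD over summits), against 45.3% ± 8.13 for all 1951. The lowest was nhr-158 at 28.7% and the highest nhr-41 at 59.4%. The 189 weaker candidate summits in receptor gene windows averaged 36.6%, against 36.8% for 8678 such summits over all genes. The difference in GC content therefore ran between optimal peaks and weaker candidates, and was about the same for receptor genes as for all genes.

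The strongest promoter peak lay at nhr-34 (chrIV:9672514-9672779), with a pooled signal of 242 and rank 290, and its summit was in a coding exon 28 bp downstream of an annotated 5′ end. It ranked 404 in replicate 1 and 248 in replicate 2. The peak of nhr-119 (chrII:2800910-2801157) had a signal of 222, rank 356, with ranks of 423 and 327 in replicates 1 and 2. That of nhr-35, on X, had 203, rank 427, with ranks of 529 and 371. These 3 genes stood high in each replicate by itself, and nhr-34 and nhr-35 each had a second optimal peak in their windows, which no other receptor gene had.

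Next came a pair on chromosome V. The peak of nhr-158 (chrV:3874447-3874659) had a signal of 193, rank 464, and ranked 351 in replicate 1 and 551 in replicate 2. The peak of nhr-57, a gene known as a target of the hypoxia factor HIF-1 (chrV:4131641-4131815), had 192, rank 467, and ranked 757 and 375. Together with nhr-34, nhr-119 and nhr-35, these made up the 5 receptor genes among the 500 strongest pooled candidates (1.89%, against 1.88% of all genes).

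Below them, nhr-47 had a signal of 156 (rank 675), nhr-1 144 (782) and nhr-48 128 (976). The summit of nhr-47 (chrV:5505041-5505430) was 17 bp upstream of its 5′ end, inside the small noncoding RNA gene C24G6.10 and also in the window of dnj-19, so the lists do not tell which gene it belongs to. The gene nhr-48 is one of the receptors of the group that also holds daf-12 and nhr-8 and is related to the vertebrate vitamin D receptor. Its peak (chrX:15707371-15707760) ranked 623 in replicate 1 and 1527 in replicate 2, while that of nhr-1 (chrX:17513574-17513963) ranked 1523 and 580. These opposite orders show how far ranks of single peaks moved between the replicates.

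The last 4 of the 12 strongest had similar signals, with nhr-105 at 124 (chrIV:7049667-7050056), nhr-32 at 119.7 (chrX:13251423-13251812), nhr-43 at 118.8 (chrIV:11899439-11899828) and nhr-114 at 117 (chrV:4186527-4186916). They ranked 1460, 846, 1128 and 1943 in replicate 1 and 910, 1429, 1118 and 793 in replicate 2. The gene nhr-114 is known for protecting the germline when the bacterial diet changes, and its summit lay in an intron of Y45G5AM.9. Of these 4, nhr-43 had nearly the same rank in both replicates and nhr-114 the most different ones.

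The remaining 16 ran by falling signal through nhr-58, nhr-142, nhr-135, nhr-19, nhr-97, nhr-50, nhr-79, nhr-104, nhr-62, nhr-46, nhr-31, nhr-41, nhr-258, nhr-85, nhr-101 and nhr-159, with signals of 113 at nhr-58 and 53.6 at nhr-159. Among them, nhr-142 shared its peak with F44E7.9 and nhr-101 with pms-2. Over all 28, the median signal was 96.4, against 92.5 over all 2316 genes with an optimal peak. The highest over all genes was 1244, far above the 242 of nhr-34. Of the 28 peaks, 23 had the 390 bp width that 78.7% of all optimal peaks shared, and the narrower ones were those of the 5 strongest genes, at 168 to 266 bp.

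**Figure D1:**
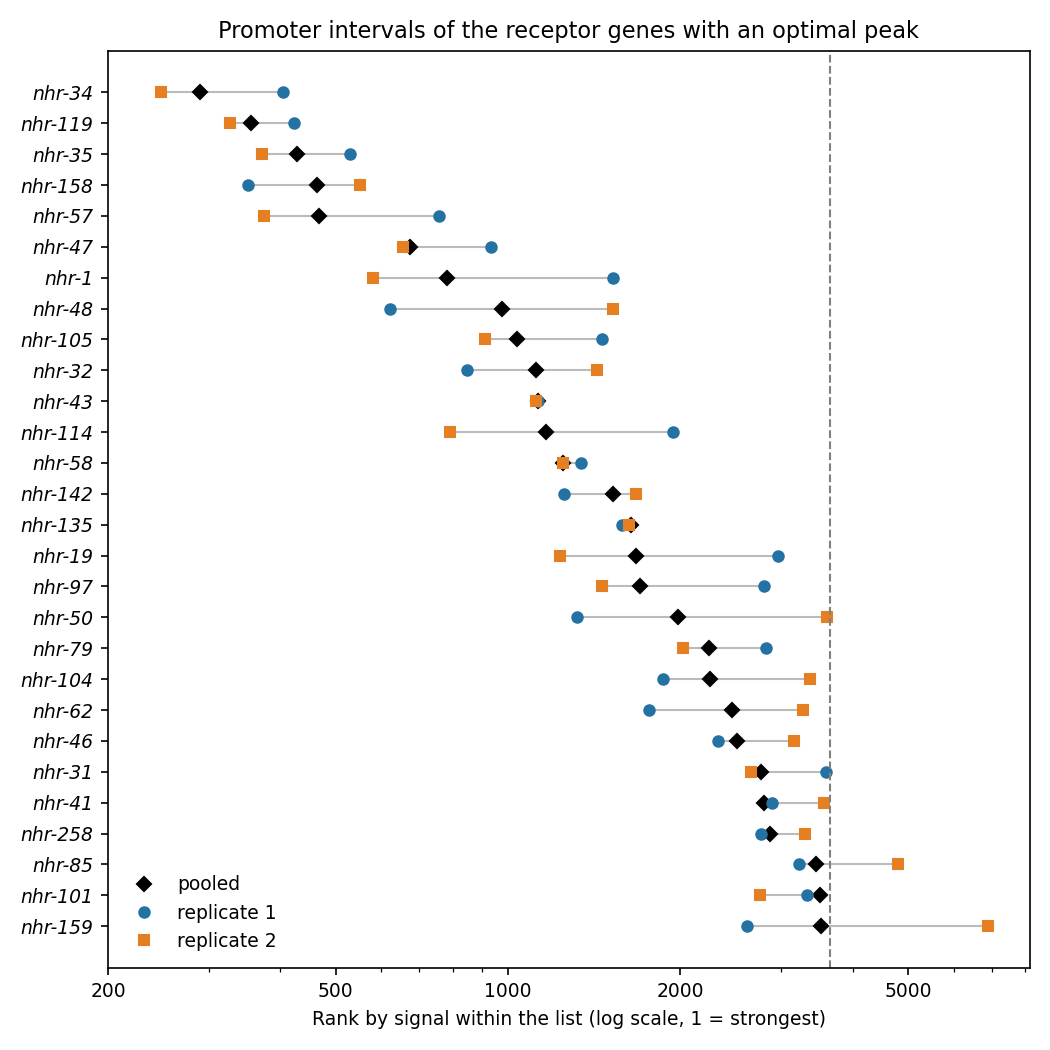
Rank by signal (horizontal axis, log scale, 1 is the strongest) of the promoter interval of each of the 28 receptor genes with an optimal peak, in the pooled list (diamonds) and for the overlapping interval of replicate 1 (circles) and replicate 2 (squares). The dashed line is rank 3647; 26 of the 28 genes lie left of it in all lists, and nhr-85 and nhr-159 lie right of it in replicate 2.

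The first genes past the threshold were close to the last ones within it. Just inside were nhr-41 (signal 63.7), nhr-258 (62.5), nhr-85 (54.5), nhr-101 (53.9) and nhr-159 (53.6). Just outside were nhr-132 (51.6), nhr-137 (50.9), nhr-254 (49.9), nhr-56 (49.4) and nhr-44 (49.3). The lowest optimal signal was 52.2, so membership turned on small differences for nhr-85, nhr-101, nhr-159 and the 5 genes just outside. The peaks of nhr-41 (rank 2804) and nhr-258 (rank 2872) lay further inside. Of the 5 outside, nhr-132 ranked 2344 in replicate 1 and 7470 in replicate 2, and nhr-56 ranked 7720 and 3109.

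Each replicate by itself gave much the same set. Taking the 3647 strongest intervals of a replicate, 33 receptor genes (12.5%) had one in replicate 1, against 11.2% of all genes, and 31 (11.7%) in replicate 2, against 11.3%. In both replicates it was 26 (9.81%), against 8.92%. Of the 28 genes with an optimal peak, 25 were among these 26. The other 3, nhr-62, nhr-85 and nhr-159, were in the set of replicate 1 only. For nhr-62, a receptor needed for the long life of worms on a restricted diet, the overlapping interval of replicate 2 ranked 3278, but its summit lay 42 bp further from the annotated 5′ end within the gene and so outside the window.

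A candidate of any rank was present at 129 receptor genes in replicate 1 (48.7%), against 41.9% of all genes, and at 152 in replicate 2 (57.4%), against 42%. All 28 genes with an optimal peak had a candidate in both. The ranks of nhr-50 differed 2.74-fold between the replicates, those of nhr-159 2.64-fold, nhr-1 2.63-fold, and nhr-48 and nhr-114 2.45-fold each, the 5 largest of the 28. The rank was better in replicate 2 for 15 of the 28. Across the 28 genes, Spearman's rho of the signal in the 2 replicates was 0.674 and Pearson's r of log2 signal 0.744, given as a description, since the points come from the same 2 libraries. The summit of replicate 1 lay a median of 24.5 bp from the pooled one and that of replicate 2 11 bp.

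The excess of candidates at receptor genes sat just below the threshold. Ranks 3648 to 10000 held the strongest candidate of 55 receptor genes (20.8%), against 11.6% of all genes. In ranks 10001 to 20000 it was 34 genes (12.8%), against 10.6%, and in ranks 20001 to 30000 26 genes (9.81%), against 7.44%. The median candidate signal was nevertheless 26.0 for receptor genes and 27.5 for all genes with a candidate. At the top, 8 receptor genes (3.02%) were among the 1000 strongest, against 3.6% of all genes, and 18 (6.79%) among the 2000 strongest, against 6.73%.

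**Figure D2:**
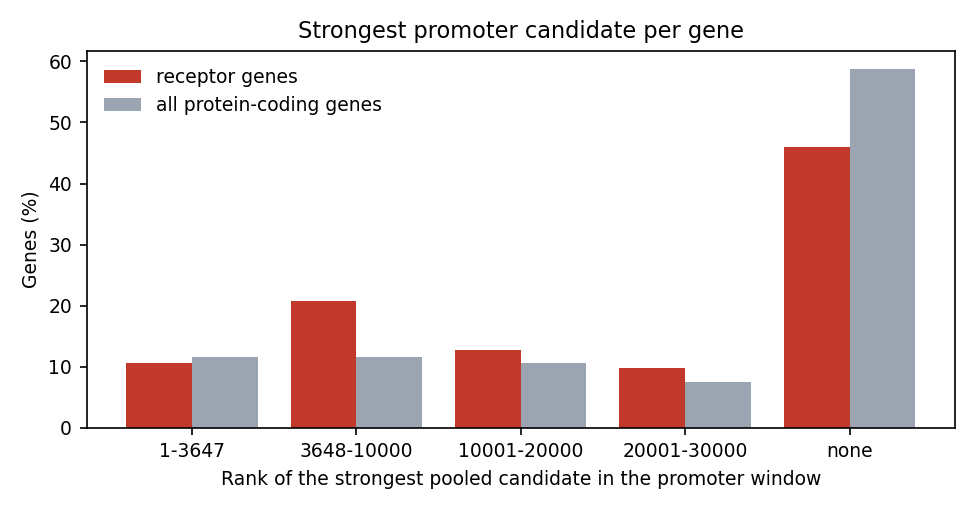
Share of genes (vertical axis, percent) by the rank of the strongest pooled candidate in the promoter window, for 265 receptor genes (red, left bar) and 19973 protein-coding genes (grey, right bar). The 2 sets differ most in ranks 3648 to 10000, at 20.8% and 11.6%, and in genes with no candidate, at 46% and 58.8%.

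Summits at receptor genes lay mostly upstream. Of the 28 strongest optimal summits, 25 (89.3%) were upstream of the nearest annotated 5′ end, against 93.5% over all genes, and the median position of the summit was -320 bp, against -246.5 bp over all genes (negative is upstream). By protein-coding gene models, 17 of the 28 were intergenic, 6 in introns, 4 in a 5′ UTR and 1 in a coding exon. Many worm transcripts are trans-spliced, so the annotated 5′ end can lie downstream of where transcription starts. Receptor genes with an optimal peak also had more annotated 5′ ends, and so a larger window: 19 of 28 (67.9%) had several, against 33.6% of all receptor genes and 26.3% of all protein-coding genes. The part of window size in these counts was not tested. With the most upstream 5′ end alone, 22 of the 265 receptor genes had an optimal peak, beside 10.7% of all genes.

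The chromosomes differed. On chromosome V, which holds most of the family, 11 of 165 receptor genes had an optimal peak (6.67%), against 7.97% of all genes there, and 89 had a candidate (53.9%), against 32.7%. Among the 89, optimal peaks were at 12.4%, against 24.4% of the chromosome V genes with a candidate. On the other chromosomes together, 17 of 100 receptor genes had an optimal peak (17%), against 12.8% of all genes, and 54 had a candidate (54%), against 44%.

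Chromosome IV gave 9 of the 28, nhr-34, nhr-43, nhr-97, nhr-104, nhr-105, nhr-31, nhr-41, nhr-46 and nhr-258, out of 32 receptor genes (28.1%), against 10.2% of its genes. On X, 4 of 25 had an optimal peak (16%), against 13%, and 21 had a candidate (84%), against 44.8%. Chromosome I went the other way: 4 of its 22 receptor genes had a candidate (18.2%), against 47%. Its receptor genes include a run of 6 genes, nhr-74, nhr-73, nhr-259, nhr-244, nhr-113 and nhr-245, and a run of 3, nhr-81, nhr-165 and nhr-217, none of them with a pooled candidate. In the run of 6, the windows of nhr-244, nhr-259, nhr-73 and nhr-245 were mostly repeated sequence (91.6%, 86.9%, 85.7% and 60.3% of their 31-base words), and the part of this in the low share was not tested.

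**Figure D3:**
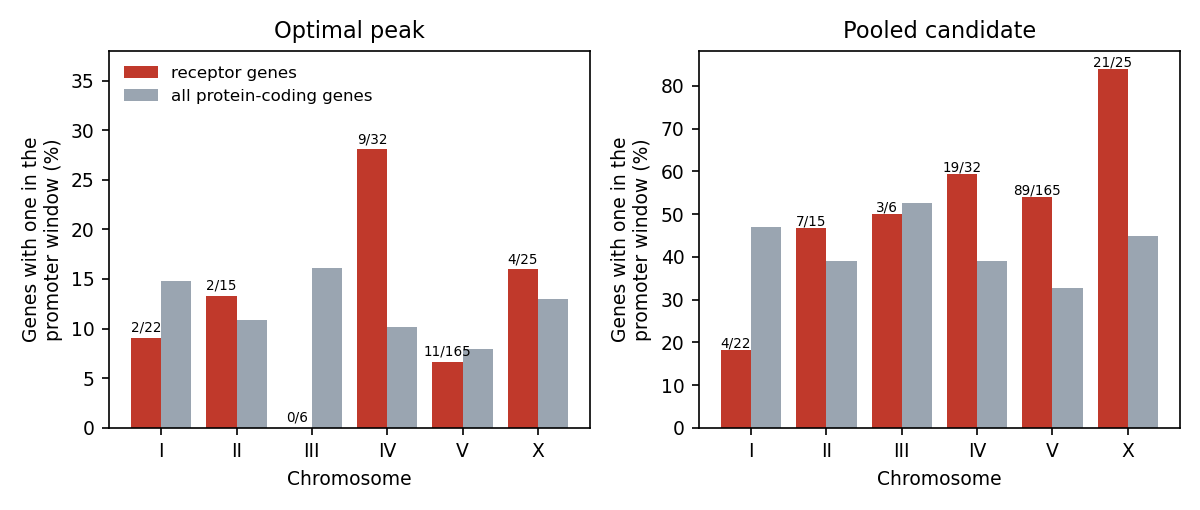
Share of genes (percent) with an optimal peak (left panel) and with a pooled candidate (right panel) in the promoter window, by chromosome, for receptor genes (red, left bars, with counts) and all protein-coding genes (grey, right bars). Receptor genes of IV stand above the background for optimal peaks (28.1% and 10.2%), those of V for candidates only (53.9% and 32.7%), and those of I below it for candidates (18.2% and 47%).

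Some receptor genes had windows of repeated sequence, where reads are hard to place. More than 50% of the 31-base words of the window occurred elsewhere in the genome for 8 receptor genes (3.02%), against 3.2% of all genes. These were nhr-244, nhr-141, nhr-259, nhr-73, nhr-245, nhr-87, nhr-247 and nhr-274. None of the 28 genes with an optimal peak was among them, 2 with a weaker candidate were, and 6 of the 122 with none. On chromosome V it was 2 of 165. Neither the labels nor the lists say how reads that map to several places were treated.

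Of the 165 receptor genes of chromosome V, all but 64 lay in 17 clusters, counted as runs of at least 3 with each gene within 20 kb of the next. Candidates were about as common in clusters as outside them, at 57 clustered genes (56.4%) and 32 of the 64 others (50%), against 32.7% of all chromosome V genes. Optimal peaks were at 3 clustered genes (2.97%) and at 8 of the 64 others (12.5%), against the 7.97% of all chromosome V genes. Of the 53 other protein-coding genes that lie within the clusters, 11 had a candidate (20.8%) and 0 an optimal peak, which allows a share of up to 5.66%. The strongest candidate of a clustered gene had a median rank of 9689, against 11857.5 for the unclustered genes of V and 5760 for receptor genes of the other chromosomes. Several 5′ ends were annotated for 31.7% of clustered and 32.8% of unclustered genes of V. By the same rule the other chromosomes held 8 clusters, on I, II, IV and X, and no receptor gene in those had an optimal peak. All 17 receptor genes with an optimal peak on these chromosomes lay outside clusters. The clusters off V held 3 to 6 receptor genes each, so few genes stand behind this. Of all protein-coding genes off V, 12.8% had an optimal peak. In the run of 6 genes on I, most windows were repeated sequence. Whether a low share of optimal peaks in clusters is particular to V was not tested.

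The 3 clustered genes with an optimal peak lay in 2 clusters. The larger one (chrV:3844429-3908452) held 10 receptor genes, in order nhr-185, nhr-186, nhr-188, nhr-189, nhr-187, nhr-157, nhr-158, nhr-159, nhr-124 and nhr-156. The neighbours nhr-158 (signal 193) and nhr-159 (53.6) had optimal peaks 2852 bp apart, and nhr-188 (34.4), nhr-186 (18.7) and nhr-157 (11.0) weaker candidates. The other 5 had no pooled candidate, nor had the 8 other protein-coding genes of that stretch. Of those 5 receptor genes, nhr-189 had an interval in replicate 2 alone and nhr-124 in replicate 1 alone, both weak. Signal was thus uneven along this cluster.

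The smaller one (chrV:517801-541485) held nhr-210, nhr-58, nhr-132 and nhr-155. Here nhr-58 had an optimal peak (signal 113, ranks of 1341 and 1248 in replicates 1 and 2), nhr-132 the candidate just below the threshold (51.6), nhr-155 a weak one (20.6), and nhr-210 none. In contrast, all 7 genes of another cluster (chrV:12092006-12109313), nhr-206, nhr-208, nhr-207, nhr-209, nhr-154, nhr-153 and nhr-136, had a candidate and none an optimal peak. The best of them was nhr-207, with a signal of 48.04 and rank 4030. In 3 clusters, of 3, 3 and 5 genes, no gene had a pooled candidate.

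**Figure D4:**
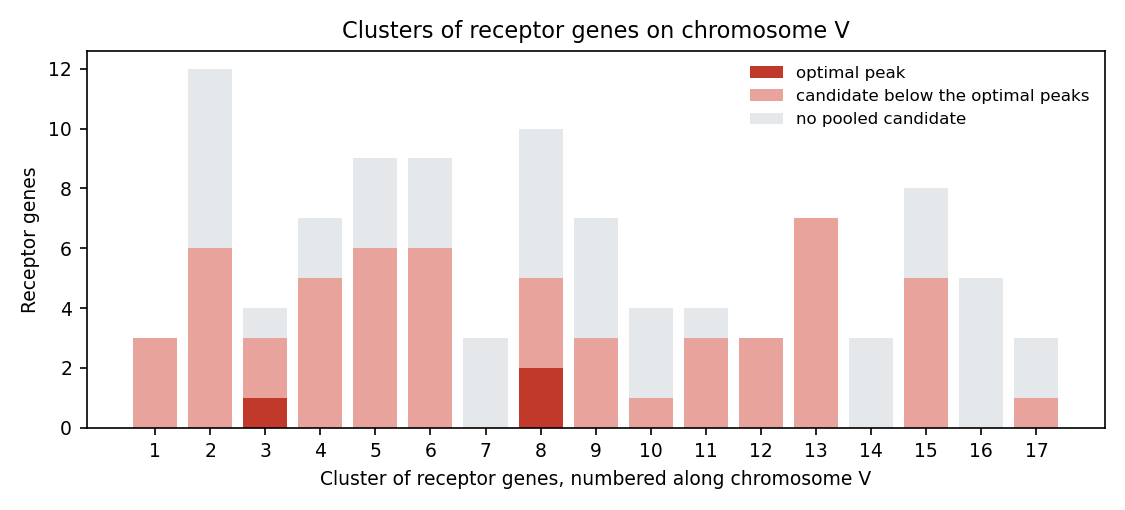
Number of receptor genes (vertical axis) in each of the 17 clusters of chromosome V, numbered along the chromosome, by whether the promoter window held an optimal peak, a weaker pooled candidate or no pooled candidate. Dark red is confined to clusters 3 and 8, with 1 and 2 genes, and cluster 13 has a weaker candidate at all 7 genes.

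Members with a clear counterpart outside nematodes were taken as a list of 11. Of these, 5 had a candidate (45.5%) and 3 an optimal peak (27.3%), against 41.2% and 11.6% of all genes. The 3 were nhr-48 (signal 128), nhr-41 (63.7), related to the vertebrate testicular receptors, and nhr-85 (54.5), a relative of Rev-erb that acts in larval timing. Weaker candidates were at nhr-91 (34.6), related to the germ cell nuclear factor, and at nhr-6 (15.9), the worm NR4A receptor that shapes the spermatheca. The gene nhr-8, known for xenobiotic resistance and cholesterol balance, had an interval in replicate 2 alone (16.7, rank 8553).

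No list held an interval in the windows of nhr-67, the tailless relative that acts in the anchor cell, of nhr-111, or of the 3 conserved members with other names. Those are fax-1 and unc-55, which set features of single neuron classes, and sex-1, which takes part in counting X chromosomes. The fourth gene without an nhr name, odr-7, known from the AWA olfactory neuron, had none either. In whole animals, binding in few cells of 1 kind cannot be told apart from no binding.

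Members with a role known from worm genetics, outside that list, numbered 15. Of these, 11 had a candidate (73.3%), against 41.2% of all genes, and 4 an optimal peak (26.7%), against 11.6%. The 4 were nhr-57 (signal 192), nhr-114 (117), nhr-62 (70.5) and nhr-31 (64.6), the last needed for the excretory canal. Below the threshold, at ranks 4743 to 5280, came nhr-69 (42.3), nhr-40 (41.3), which acts in muscle development, and nhr-64 (38.9). Lower were nhr-14 (25.1), which acts in iron uptake, nhr-28 (23.2), the xenobiotic regulator nhr-176 (13.2) and nhr-86 (13.03), which senses a bacterial metabolite. The deposited −log10 q-value was 0.249 at nhr-176 and 0.239 at nhr-86. An interval in replicate 2 alone was found for nhr-2 and for nhr-76, which acts in fat use, and none for nhr-60 and odr-7. Both lists are of genes chosen for being known, and few genes stand behind either share.

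The receptors that the naming rule leaves out and daf-12 served as a comparison, with the coregulators and the enzymes of dafachronic acid, the ligand of DAF-12. All 9 of those receptors had a candidate and 5 an optimal peak (55.6%), against 41.2% and 11.6% of all genes. The 5 were nhr-68 (signal 580, rank 39), nhr-23 (175.8), nhr-10 (154), nhr-49 (148) and nhr-25 (97.7). The summit of nhr-10 lay 250 bp downstream of a 5′ end, at the edge of the window, and replicate 2 had no summit in that window. The peak of nhr-68, a regulator of propionate breakdown, was stronger than any promoter peak of the 265, and lay 2604 bp from the summit of its neighbour nhr-101 (53.9). The coregulators cbp-1 (437), the worm CBP/p300, and din-1 (225), a corepressor of DAF-12, had optimal peaks, and the Mediator subunit gene mdt-15 a candidate (25.1). Of the 4 enzyme genes, daf-9 (45.4) and dhs-16 (20.1) had candidates, daf-36 and hsd-1 none, and 0 an optimal peak.

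Receptor genes also carried optimal peaks inside the gene but outside its own promoter window. There were 22 such peaks in 15 genes (5.66%), against 3.11% of all protein-coding genes. All 22 summits were outside the annotated exons of the receptor gene itself, whereas 186 of the 848 such peaks over all genes were in exons of their gene. On X lay 13 of them, in 10 genes, and on V 0. The same split by chromosome was not computed for all genes, so it describes these 22 peaks only. The 15 genes had a median length of 6922 bp, against 2302 bp for all receptor genes and 2027 bp for all protein-coding genes, and the part of gene length in this count was not tested.

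The strongest was in nhr-14 (chrX:8475100-8475486), with a signal of 479 and pooled rank 55, 853 bp downstream of a 5′ end. It ranked 77 in replicate 1 and 46 in replicate 2. The promoter window of the same gene held no more than a candidate of 25.1. In nhr-3 (chrX:14560293-14560648) the intronic peak had 428 (rank 72, with ranks of 125 and 58 in replicates 1 and 2) and the promoter candidate 47.5. Both peaks were above the strongest promoter peak of any of the 265 genes, the 242 of nhr-34.

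The gene nhr-19 held 3 intronic peaks, of 355 (chrII:9603507-9603763), 296 (chrII:9601168-9601435) and 57.7, beside a promoter peak of 92.5. The peaks of 355 and 296 ranked 149 and 142 in replicate 1 and 112 and 224 in replicate 2. In nhr-31 the stronger of 2 intronic peaks (chrIV:8028325-8028622) had 294, against 64.6 at the promoter, and in nhr-46 (chrIV:5754126-5754313) 226, against 69.2. In 9 of the 15 genes the promoter window held no optimal peak, so the intronic peak was the stronger by the way the genes were chosen. Of the 6 with both kinds, the intronic one was stronger in 5, the exception being nhr-1 (73.3, against 144). That peak of nhr-1 also differed most between replicates, ranking 8153 in replicate 1 and 1674 in replicate 2.

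The other intronic peaks were in nhr-48, nhr-137, nhr-17, nhr-27, nhr-85, nhr-40, nhr-138, nhr-120 and nhr-91, with signals of 150 in nhr-48 and 54.9 in nhr-91. Of the 22, 18 overlapped an interval among the 3647 strongest of replicate 1 and also one among those of replicate 2. Of the 3 in nhr-27, 2 lay in the promoter windows of alh-13 and abf-6, genes within its long introns. Both kinds of peak were at 6 genes, nhr-1, nhr-19, nhr-31, nhr-46, nhr-48 and nhr-85, and 37 receptor genes had a promoter or an intronic one.

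**Figure D5:**
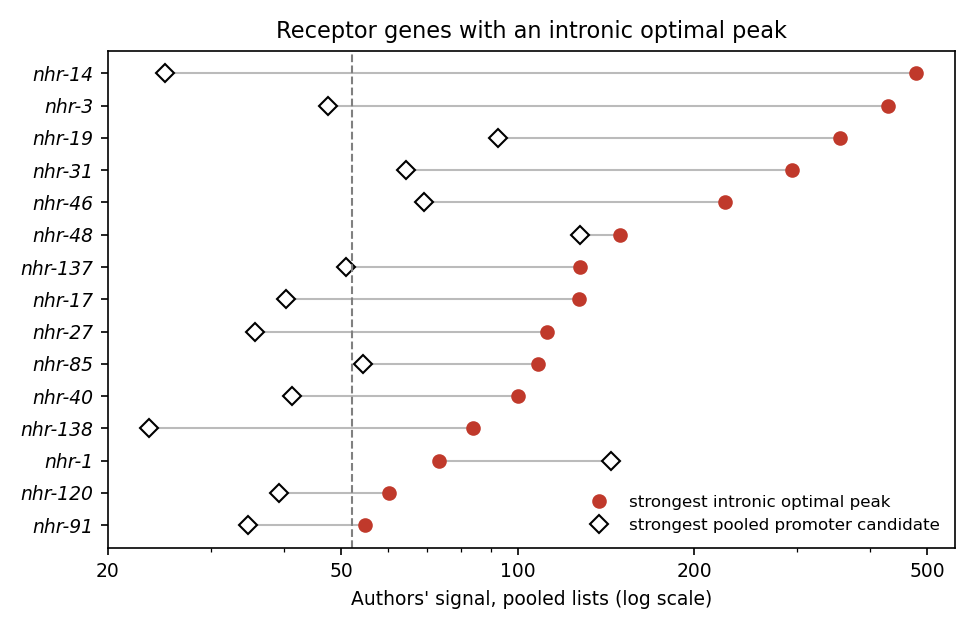
Pooled signal (horizontal axis, log scale) of the strongest intronic optimal peak (filled circles) and of the strongest promoter candidate (open diamonds) in the 15 receptor genes with an intronic optimal peak. The dashed line is the lowest optimal signal, 52.2; the 9 genes with a diamond left of it had to have the circle on the right, and of the other 6 all but nhr-1 do.

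Several of these summits touched small RNA genes. The promoter-window summit of nhr-41 was inside a tRNA gene on the opposite strand (WBGene00023202, chrIV:1388216-1388287). An intronic summit of nhr-17 lay 24 bp from another tRNA gene, one of nhr-138 inside the snoRNA gene C28D4.17, and one of nhr-91 inside the noncoding RNA gene Y15E3A.15. In all, 1 of 28 promoter and 1 of 22 intronic summits were within 250 bp of a tRNA gene. The same shares over the optimal summits of all genes were not computed, so these counts only describe the receptor genes. The lists do not tell whether such an interval belongs to the receptor gene or to the small RNA gene.

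The gene of the tagged receptor itself, nhr-21 (chrII:7339229-7349133, plus strand), had no interval. No candidate of the pooled list or of either replicate lay within 5000 bp of it. The nearest pooled candidate was 23936 bp away, at a signal of 10.03 and rank 29439. The transgene holds a further copy of nhr-21 sequence in these animals, and neither the labels nor the lists say how that region was treated.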

How the data were processed

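ChIP-seq intervals of 2 replicates (labelled fragment size 150 to 350 bp) were used as deposited: 30000 candidates per replicate, 30000 pooled and 3647 optimal peaks, in ce11. Each interval carries the authors' signal value from their peak caller and a deposited −log10 q-value, and positions and summit offsets deposited in bp. Per the deposited text listing, calls used ChIP alignments with a control alignment. The deposited list names say that the pooled candidates were peaks and background used as input for IDR, a measure of reproducibility between replicates. By the same names the optimal peaks were thresholded by IDR. Neither labels nor files name the aligner, the caller or the value of the threshold. Each candidate list ends at a fixed length. All optimal peaks have the same top −log10 q-value of 4.00 in the deposited list, so signal was used to rank.

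Gene models came from Ensembl release 115 and sequence from the RefSeq WBcel235 genome. Summits were assigned to promoter windows in Python 3.11.15 with pandas 2.3.3 and NumPy 2.4.6, and a summit in several windows counted for each gene. The assignment was tested on simulated summits: 200 of 200 placed inside windows were found, and 0 of 200 placed 1 bp outside. The members, lists, words and rules were chosen with earlier results of these data known. Named genes were those with an optimal peak (the 12 strongest with replicate values), both lists of known receptors, nhr-21, the 5 genes just outside the threshold, the clusters of V with an optimal peak, and the 5 largest rank differences; intronic peaks, repeated windows, runs without a candidate and small RNA genes were added after seeing values. No test was run, since there is 1 group. The deposited ce10 lists were not used. The sequences of some summits are not reported here, those that reach a UTR among them.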

Additional observations from a re-analysis of the deposited data

How the results depend on the processing

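Of 30 alternative counts, 26 stayed within 1.5 times the main value. Of the 4 that moved, 3 used stricter lists and 1 a longer one. In the stronger 50% of the optimal peaks, 17 of the 265 receptor genes had one, against 6.24% of all genes. On chromosome V it was 7 of 165, against 4.06% of its genes. With the 10000 strongest candidates, 83 receptor genes (31.3%) had a pooled candidate, against 23.2% of all genes. With the 10000 strongest of each replicate in place of 3647, 51 receptor genes had an interval in both replicates, against 17.3% of all genes. These 4 settings used fewer or more intervals by construction. Windows from 500 bp upstream and 100 bp downstream to 2000 bp upstream gave 21 to 36 receptor genes with an optimal peak. The shares over all genes were 8.95% and 15%. Any overlap gave 31 receptor genes, against 12.4% of all genes. With 1 replicate's own 3647 strongest intervals instead of the optimal peaks, 31 receptor genes were counted without replicate 1 and 33 without replicate 2. The shares over all genes were 11.3% and 11.2%. On chromosome V it was 15 and 14 of 165 receptor genes, against 7.81% and 7.59% of its genes. Both lay above the share over all genes there, while the main count of 11 lay below its 7.97%. Candidates were at 152 and 129 receptor genes, against 42% and 41.9% of all genes. No paired analysis was possible because there was 1 group. Depth is unknown, and weak intervals near the end of the lists depend on where each list stops.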

Other observations

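At nhr-256 (chromosome V) the replicates and the pooled list differed. Replicate 1 had an interval in its promoter window with a signal of 34.3 and rank 2082, and replicate 2 one with 48.4 and rank 2093. The pooled list held no candidate within 5000 bp of the gene, although it was made from both replicates. Of 2779 strongest intervals of replicate 1 that overlap one of the strongest of replicate 2, 5 overlapped no pooled candidate, this one among them. It is the 1 receptor gene among the strongest of both replicates with no optimal peak, and it was singled out after its values were seen.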
